A study of Mus musculus with 48 samples.

Results

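Insulin and FOXO signalling was followed through the day in mouse kidney in 10 genes, at the level of the transcript and of its translation. The genes were taken by name and are the receptors Insr and Igf1r, the adaptors Irs1 and Irs2, the regulatory subunit Pik3r1, the transcription factors Foxo1 and Foxo3, and Txnip, Sesn1 and Sesn3, whose products restrain glucose uptake or growth signalling. All 10 were present among the 12423 genes that the files list in both assays, and all 10 were among the 11863 genes tested.

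The 24 kidney pools came from male C57BL/6JRj mice of 11 to 12 weeks, 2 animals to a pool, anaesthetised with isoflurane before collection. The labels name no genetic change or drug for any group. The mice lived in 12 h of light and 12 h of darkness with food always present, and pools were collected every 2 h from Zeitgeber time (ZT) 0, when the lights came on, to ZT22, as 2 replicate pools per timepoint from 2 daily cycles. Each pool gave 1 RNA-seq library, which measures transcript abundance, and 1 library of ribosome-protected fragments (RPF-seq), which counts the mRNA pieces covered by translating ribosomes. Values are RPKM on the coding sequence (reads scaled to coding length and library size), and translation efficiency (TE) is the RPF RPKM over the RNA RPKM of the same pool.

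Insulin and insulin-like growth factors bind the receptors INSR and IGF1R, which phosphorylate the adaptors IRS1 and IRS2. These recruit the lipid kinase PI3K through its regulatory subunit p85 (Pik3r1), and the kinase AKT then phosphorylates FOXO factors, which leave the nucleus and stop activating their targets. Mice feed mainly in the dark, so that insulin is usually higher from ZT12 onwards, while FOXO factors are more active in the fasted light phase. In the kidney the pathway is known for restraining gluconeogenesis in the proximal tubule and for sodium retention. Food intake and hormones were not measured in these pools, so the dark phase stands in for the feeding phase.

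The libraries rested on an estimated 9900000 to 33600000 reads per RNA-seq library and 15600000 to 35000000 reads per RPF-seq library, rounded and read from the steps between low values. Light phase libraries were the deeper ones, with a median depth relative to all libraries of the assay of 1.14 against 0.812 for RNA-seq and 1.18 against 0.91 for RPF-seq. The shallowest RNA-seq libraries were those of ZT20, at relative depths of 0.626 and 0.598. The part of depth in the results was not tested. No pair of libraries held identical values. All 11 clock genes on a control list were rhythmic in RNA-seq, with peaks such as ZT22.5 for Arntl and ZT10.5 for Dbp. All 11 kidney markers were in the files, among them Umod at 1978 to 3194 RPKM and Slc34a1 at 2086 to 2883 RPKM.

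Of markers for other tissues, 0 of 6 adrenal cortex genes and 4 of 6 adipocyte genes were in both assays. The summed adipocyte markers were higher in the light, with a median of 14.5 RPKM and a range of 8.20 to 47.9, than in the dark, with a median of 5.98 RPKM and a range of 2.36 to 20.1, and 2 of the 3 tested passed the comparison of dark with light in RNA-seq (limma, FDR below 0.05), beside 25.5% of all genes. All 4 had values above 0 in every RNA-seq library, with medians from 0.368 RPKM for Plin1 to 7.25 RPKM for Cfd. Of the 11 kidney markers, 7 passed the same comparison, 5 of them higher in the dark. Their summed level ran from 44820 to 54720 RPKM in the light and from 49910 to 71940 in the dark. Most of this sum was a single gene, Kap, at 36440 to 63580 RPKM, so the sum says little about the other markers. The part of either list in the differences between light and dark below was not tested. In whole tissue, fewer cells of a type and less RNA per cell cannot be told apart.

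Promoter sequences are shown for Txnip and Irs2, which had the largest fitted rhythms of the 10 genes, and for Irs1. These promoters hold short elements known to bind clock, carbohydrate or FOXO factors. The Irs1 transcript did not pass the 24-h test described below (limma FDR 0.37). Its TE passed (limma FDR 0.041), a call that was lost in 12 of 24 fits that left out 1 pool. RefSeq promoters on GRCm38.p6, each from 250 bases before the start to 50 after it, were found for 9 of the 10 genes, in 11 entries. Insr had no entry. For Txnip and Irs2 the 250 bases before the start are printed, and for Irs1 30 bases around the element. Txnip lies at chr3:96557707-96557956 on the plus strand, Irs2 at chr8:11008930-11009179 on the minus strand and Irs1 at chr1:82291537-82291566 on the minus strand. Capitals mark the E-box CACGTG in Irs2 and Irs1, and in Txnip first the FOXO element GTAAACA and then a pair of CACGAG motifs with 5 bases between them.
Txnip: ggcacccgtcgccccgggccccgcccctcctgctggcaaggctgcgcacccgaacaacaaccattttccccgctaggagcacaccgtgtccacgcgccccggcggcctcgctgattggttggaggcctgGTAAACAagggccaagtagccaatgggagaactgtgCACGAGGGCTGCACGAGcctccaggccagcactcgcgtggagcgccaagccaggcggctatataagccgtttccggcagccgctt
Irs2: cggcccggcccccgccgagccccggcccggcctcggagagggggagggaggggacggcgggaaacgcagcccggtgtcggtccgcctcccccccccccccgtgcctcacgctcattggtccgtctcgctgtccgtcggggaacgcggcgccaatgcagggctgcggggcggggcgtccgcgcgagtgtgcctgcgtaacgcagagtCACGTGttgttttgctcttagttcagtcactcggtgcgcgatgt
Irs1: cagaggctccgtCACGTGttttgctcctct

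The FOXO element of Txnip began 121 bases and the CACGAG pair 85 bases before the start. The E-box began 44 bases before the start of Irs2 and 115 bases before that of Irs1. The RefSeq start of Txnip was also the start of the gene in GENCODE vM21, while that of Irs2 lay 471 bases upstream of the GENCODE start. Both strands of all 32851 promoters in the RefSeq table were searched for the same letters. CACGTG was in 7.15% of them and in 2 members, and GTAAACA in 3.65% and in 2 members, the other being Sesn1 just after its start. The CACGAG pair, a spacing seen in carbohydrate response elements that was chosen after the Txnip sequence had been read, was in 1 promoter of the table, that of Txnip itself. The D-box TTATGTAA (0.938% of promoters) and the STAT element TTCNNNGAA (8.3%) were in 0 members. A match is a run of letters and not evidence that a factor binds there.

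The first question was which of these genes have a 24-h rhythm, and at what time of day they peak. A cosine and sine of 24 h were fitted with limma to log2(RPKM + 0.1) over the 24 pools of an assay. A gene is called rhythmic here at a Benjamini-Hochberg FDR below 0.05 and a fitted peak-to-trough fold of at least 1.5. In RNA-seq 3 of the 10 genes, Irs2, Foxo3 and Txnip, were rhythmic, while 10.2% of all genes tested were. Without the fold limit, 6 of 10 passed, as did 48.6% of all genes. In RPF-seq only Txnip was rhythmic, against 7.58% of all genes, and 5 of 10 passed the FDR alone, against 30.9%. The median fitted peak-to-trough difference of the 10 genes was 0.28 on the log2 scale in RNA-seq and 0.34 in RPF-seq, beside 0.27 and 0.24 over all genes tested. All 3 rhythmic transcripts peaked in the light, as did 63.7% of all rhythmic transcripts.

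**Figure D1:**
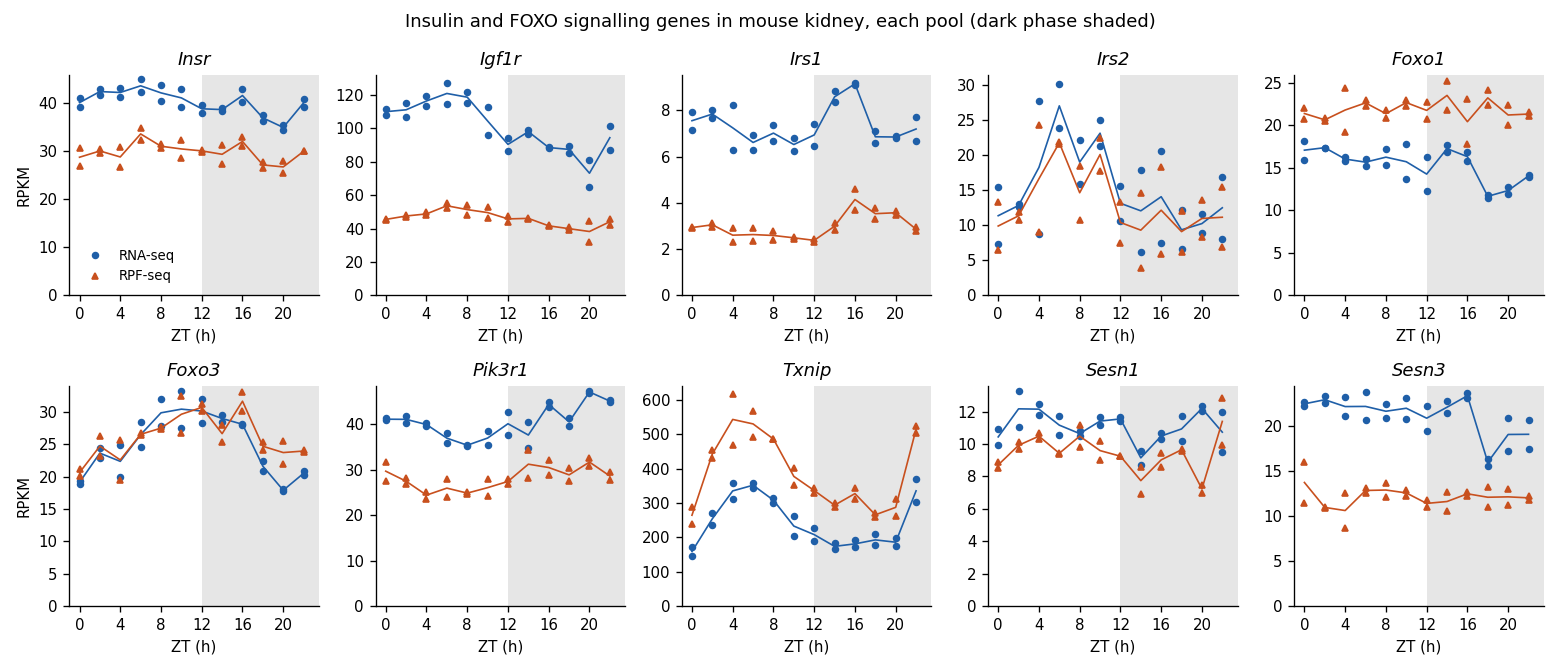
RPKM of each of the 10 genes (y axis, from 0) against ZT in hours (x axis), in RNA-seq (circles) and RPF-seq (triangles). Points are single pools, lines are timepoint means and the dark phase is shaded. Txnip falls to its lowest values at ZT0 between high values at ZT22 and ZT4, and the paired points of Irs2 lie far apart.

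Txnip encodes a protein that binds thioredoxin and promotes the internalisation of glucose transporters, and its transcription is known to respond to glucose and to FOXO factors. It was the most abundant of the 10 genes, with a mean of 243 ± 72.1 RPKM (SD, n = 24) in RNA-seq and 389 ± 109 RPKM in RPF-seq, at the 95.7 and 96.6 percentiles of the genes tested. The light phase pools ran from 146 to 360 RPKM with a median of 286, and the dark phase pools from 166 to 369 RPKM with a median of 191. The ranges overlapped almost fully, with the lowest single value at ZT0 and the highest at ZT22.

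The Txnip transcript peaked at ZT5.0 ± 0.8 h (SE) with a fitted fold of 1.73 (limma FDR 0.0019). Its footprints peaked at ZT5.2 ± 0.7 h with a fold of 1.74 (limma FDR 0.0013). The peaks of the 2 assays lay 0.17 ± 1.11 h apart, with an SE that takes the assays as independent although they share pools. The fitted TE changed by 0.04 ± 0.08 on the log2 scale through the day, with a limma FDR of 0.93. Both rhythm calls held without any single pool and were lost without replicate 1, at FDRs of 0.096 for the transcript and 0.11 for the footprints.

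The Txnip profile had more than 1 high stretch. At ZT20 the pools held 175 and 197 RPKM of transcript, at ZT22 302 and 369, and at ZT0 146 and 172. The level then climbed again to 359 and 311 at ZT4 and to 344 and 360 at ZT6. Both replicates at ZT22 lay above every pool from ZT12 to ZT20 and above both pools of ZT0. Footprints followed the same steps, with 264 and 311 RPKM at ZT20, 504 and 525 at ZT22, and 240 and 289 at ZT0. A test for any difference among the 12 timepoints gave limma FDRs of 3.0e-05 for the transcript and 2.7e-05 for the footprints. Without both ZT22 pools, an alternative added after the values had been seen, the fitted peak moved to ZT6.1 in RNA-seq and ZT6.2 in RPF-seq. The rise at ZT22 was seen in transcript and footprints alike, and in both replicate pools.

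Irs2, the adaptor known to be induced by FOXO in fasting and lowered by insulin, had the largest fitted rhythm and also the largest spread. Its RNA level averaged 15.3 ± 7.06 RPKM (SD, n = 24) and ran from 6.22 to 30.2. Light phase pools ran from 7.31 to 30.2 RPKM with a median of 18.6, and dark phase pools from 6.22 to 20.7 with a median of 11.2. The ranges overlapped widely, and the timepoint means were highest at ZT6 (27.1 RPKM) and lowest at ZT18 (9.37 RPKM).

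The fitted curve of the Irs2 transcript peaked at ZT7.3 ± 1.0 h with a fold of 2.21, and the 95% interval of the fold was 1.48 to 3.30 (limma FDR 0.0083). The call held without any single pool. It was lost without replicate 1, where the peak moved to ZT9.8 at an FDR of 0.14, and in the test for any difference among timepoints, where the FDR was 0.30. In RPF-seq the fitted fold was 1.95 with a peak at ZT6.5 ± 1.3 h and did not pass (limma FDR 0.076). It passed without ZT4 replicate 2 (FDR 0.045) or ZT16 replicate 2 (FDR 0.031).

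The replicate pools of Irs2 differed far more than those of the other 9 genes. At ZT4 the pools held 27.8 and 8.74 RPKM of transcript, at ZT14 6.22 and 17.9, and at ZT16 7.52 and 20.7. The largest ratio between replicates was 3.18, at ZT4. The pooled SD between replicates was 0.68 on the log2 scale in RNA-seq, the 47th largest of the 11863 genes, and 0.74 in RPF-seq. For the other 9 genes it ran from 0.05 for Insr to 0.15 for Txnip in RNA-seq, and the median gene had 0.14. The Irs2 values rested on 275 to 2166 reads in RNA-seq and 292 to 2639 in RPF-seq.

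The same pools were high in both assays. The difference between replicates at a timepoint had the same sign in RNA-seq and RPF-seq at 12 of 12 timepoints for Irs2. Across these 12 differences Pearson's r was 0.98 and Spearman's rho 1.00, each with a permutation p of 1e-05, the smallest that 100000 permutations can give. Adjusted over the same correlation in all 11863 genes, the p was 0.0033 for r and 0.0074 for rho. Without the 2 timepoints farthest from the median r was 0.98. This r stood at the 99.9 percentile of all genes, whose median was 0.26. The percentile takes no account of the spread between replicates, which was also among the largest for Irs2. Igf1r was the other member below 0.05, with r = 0.84, rho = 0.82 and adjusted permutation p-values of 0.021 and 0.083, and 10 of 12 signs shared, while 2.91% of all genes passed with r. The RNA and RPF libraries of a timepoint came from the same pool, so that differences between animals, dissection and handling before the lysate was split are shared by both.

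The gene whose replicate differences were most like those of Irs2 in RNA-seq was Cish, a STAT5 target that dampens cytokine and growth hormone signalling. Cish was picked after the values had been seen, as the highest of 11862 genes. Its differences had the same sign as those of Irs2 at 12 of 12 timepoints, with r = 0.95, rho = 0.96, and r = 0.92 without the 2 farthest timepoints. The permutation p was 1e-05 for each and 0.12 for r after adjustment over all genes, both the smallest that these permutations could give. In single pools Cish ran from 5.64 to 40.4 RPKM with a median of 14.8. Other genes were also looked at, chosen with values in view. Trib2 stood 8th from the highest r, below genes such as Mylip (r = 0.87) and Krt18 (r = 0.86). Trib2 had r = 0.84, rho = 0.80 and r = 0.66 without the 2 farthest timepoints. Its sign was the same at 11 of 12 timepoints, with an adjusted permutation p of 0.55. Bcl6 ran the other way, with r = -0.61, rho = -0.67 and r = -0.39 without the 2 farthest timepoints (adjusted permutation p 0.96). It stood 201st from the lowest r. Pearson's r was 0.22 for Cyp4a14, 0.28 for Socs2, 0.30 for Pdk4 and 0.55 for Igfbp1, each with an adjusted permutation p of 0.99. The summed adipocyte markers had r = 0.22 with the Irs2 differences, the summed hepatocyte markers -0.53 and the summed kidney markers -0.57, given here as descriptions over 12 timepoints. Most of the hepatocyte sum was Cyp2e1 and most of the kidney sum was Kap.

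**Figure D2:**
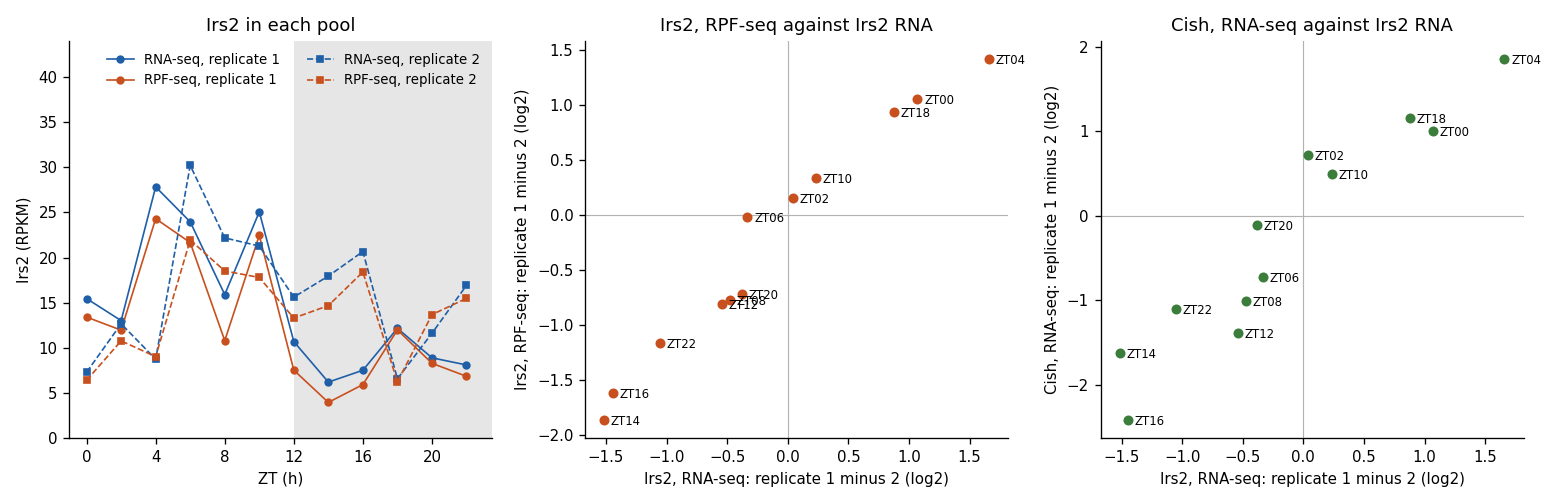
Left, Irs2 RPKM (y axis) against ZT in hours (x axis) in each pool, RNA-seq in blue and RPF-seq in orange, with replicate 1 as circles and replicate 2 as squares. Centre and right, the log2 difference of replicate 1 minus 2 in Irs2 RNA-seq (x axis) against that of Irs2 RPF-seq and of Cish RNA-seq (y axes), 1 point per timepoint, with r of 0.98 and 0.95.

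Foxo3, a FOXO factor whose targets act in atrophy, autophagy and cell cycle arrest, had the most precisely timed transcript of the 10 genes. Its RNA level averaged 24.9 ± 4.75 RPKM (SD, n = 24). The timepoint mean was lowest at ZT20, with pools of 17.7 and 18.1 RPKM, and highest at ZT10, with pools of 33.3 and 27.6. Light phase pools ran from 18.9 to 33.3 RPKM and dark phase pools from 17.7 to 32.0, with medians of 24.7 and 25.2. The phases therefore overlapped almost fully, with the fitted peak at ZT10.6 ± 0.4 h, close to lights-off.

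The fitted fold of Foxo3 was 1.61 in RNA-seq (limma FDR 5.6e-07) and 1.34 in RPF-seq (limma FDR 0.00072), where it stayed below the fold limit. Footprints peaked at ZT12.1 ± 0.7 h, 1.58 ± 0.81 h after the transcript, where the SE of the difference again takes the assays as independent. The highest footprint timepoint was ZT16, with pools of 33.1 and 30.2 RPKM, when the transcript stood at 28.1 and 28.0. The RNA call held without any single pool, without each replicate and under every alternative run.

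Foxo1, which drives gluconeogenic genes in the fasted state, was steadier. The transcript averaged 15.3 ± 2.09 RPKM and the footprints 21.8 ± 1.66 RPKM (SD, n = 24). Its fitted rhythm had a fold of 1.21 in RNA-seq (limma FDR 0.080) and 1.05 in RPF-seq (limma FDR 0.68). The lowest RNA pools were at ZT18, with 11.9 and 11.4 RPKM, when footprints stood at 24.1 and 22.3 RPKM, within their range over the rest of the day. TE was then 2.03 and 1.95, beside a range of 1.05 to 1.89 in the other pools, but the 24-h test of TE gave a limma FDR of 0.26.

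The receptors differed in size of rhythm. Igf1r, the IGF-1 receptor, averaged 101 ± 15.4 RPKM in RNA-seq and 46.0 ± 5.10 in RPF-seq (SD, n = 24). Light phase pools held 95.8 to 127 RPKM of transcript with a median of 114, and dark phase pools 65.0 to 102 with a median of 88.5. Only the lower end of the light range met the upper end of the dark range. Its transcript peaked at ZT5.6 ± 0.5 h with a fold of 1.44 (limma FDR 1.8e-05), just below the fold limit, and its footprints at ZT6.8 ± 0.6 h with a fold of 1.30 (limma FDR 0.00022).

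Insr, the insulin receptor, averaged 40.2 ± 2.70 RPKM in RNA-seq and 29.8 ± 2.28 in RPF-seq (SD, n = 24). Its pools ran from 34.3 to 44.9 RPKM of transcript. The lowest timepoint was ZT20, as for Igf1r and Foxo3. The fitted fold was 1.14 with a peak at ZT5.9 ± 1.0 h in RNA-seq (limma FDR 0.0095) and 1.11 in RPF-seq (limma FDR 0.14).

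Irs1, the adaptor of muscle and fat signalling in particular, was the least abundant of the 10 genes, at 7.36 ± 0.889 RPKM in RNA-seq and 2.98 ± 0.557 in RPF-seq (SD, n = 24). Its transcript was highest at ZT16, with pools of 9.10 and 9.19 RPKM, and its footprints at the same time with 3.70 and 4.59 RPKM. The 24-h rhythm of the transcript did not pass (fold 1.11, limma FDR 0.37). That of the footprints passed the FDR with a fold of 1.42, a peak at ZT19.0 ± 0.8 h and a limma FDR of 0.0033. With quantile normalisation the fold came to 0.59 on the log2 scale, past the limit.

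Pik3r1 encodes p85α, the subunit that links PI3K to the adaptors. It averaged 40.5 ± 3.73 RPKM in RNA-seq and 28.0 ± 2.84 in RPF-seq (SD, n = 24). Its transcript peaked at ZT20.5 ± 0.7 h with a fold of 1.22 (limma FDR 0.00044). Its footprints peaked at ZT18.4 ± 0.8 h with a fold of 1.23 (limma FDR 0.0026). The highest RNA timepoint was ZT20, with pools of 47.3 and 46.8 RPKM, at which Insr, Igf1r and Foxo3 had their lowest. The RNA-seq libraries of ZT20 were also the shallowest of the assay. Its reading frames share exons between p85α, p55α and p50α, and a single value is given for the gene.

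Sesn1 and Sesn3 encode sestrins, stress-induced inhibitors of mTORC1 and known FOXO targets. Sesn1 averaged 11.1 ± 1.07 RPKM and Sesn3 21.1 ± 2.34 RPKM in RNA-seq (SD, n = 24). Neither passed the 24-h test in RNA-seq (limma FDR 0.29 and 0.073) or in RPF-seq (limma FDR 0.17 and 0.98). Sesn3 transcript was lowest at ZT18, with pools of 16.4 and 15.6 RPKM directly after 23.6 and 23.1 at ZT16. Sesn1 footprints rose from 7.47 and 7.01 RPKM at ZT20 to 9.95 and 12.8 at ZT22, and the test for any difference among timepoints passed for them (limma FDR 0.044).

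**Figure D3:**
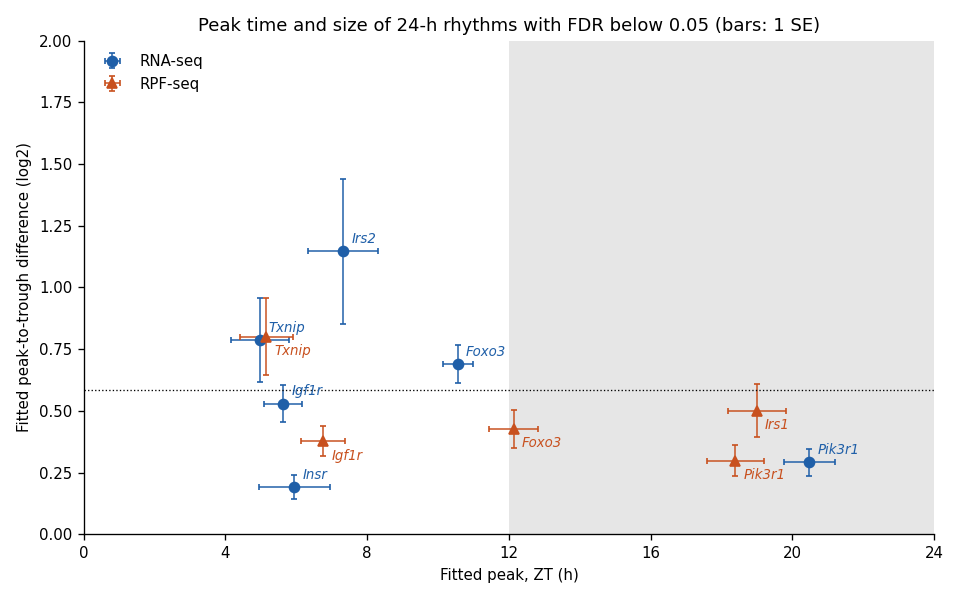
Fitted peak-to-trough difference on the log2 scale (y axis) against fitted peak in ZT hours (x axis) for rhythms with an FDR below 0.05, RNA-seq as circles and RPF-seq as triangles, with bars of 1 SE, the dark phase shaded and the 1.5-fold limit dotted. Igf1r, Insr, Irs2 and Txnip lie between ZT4 and ZT8, Foxo3 near ZT12, and Pik3r1 and the Irs1 footprints in the dark.

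The next question was whether levels differed between the light and the dark phase as such. The mean of the 12 dark phase pools (ZT12 to ZT22) was compared with that of the 12 light phase pools (ZT0 to ZT10) in limma on the log2 scale, at an FDR below 0.05 with no fold limit. In RNA-seq 5 of 10 genes passed, against 25.5% of all genes. Insr, Igf1r, Irs2 and Foxo1 were lower in the dark (14.2% of all genes were) and Pik3r1 was higher (11.3% of all genes were). In RPF-seq 2 of 10 passed, against 9.75% of all genes, with Igf1r lower in the dark (5.19% of all genes) and Pik3r1 higher (4.56%). The median dark minus light difference of the 10 genes was -0.14 in RNA-seq and -0.04 in RPF-seq on the log2 scale, beside -0.01 and -0.02 over all genes.

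Igf1r transcript fell by 0.36 ± 0.06 (SE) on the log2 scale in the dark, to 0.778 of its light level (limma FDR 4.3e-05), and its footprints fell by 0.22 ± 0.05 (limma FDR 0.012). Both calls held without any single pool. Pik3r1 was higher in the dark by 0.14 ± 0.05 in RNA-seq (limma FDR 0.042) and by 0.17 ± 0.05 in RPF-seq (limma FDR 0.031). Insr transcript fell by 0.12 ± 0.04 (limma FDR 0.016), Foxo1 by 0.20 ± 0.07 (limma FDR 0.038) and Irs2 by 0.62 ± 0.23 (limma FDR 0.045). The Irs2 difference was -0.10 without replicate 1 (limma FDR 0.90) and -1.15 without replicate 2 (limma FDR 0.0025). Insr passed without any single pool. Without replicate 1 altogether, 0 of 10 genes passed in RNA-seq and 2 had an unadjusted limma p below 0.05, while 144 of all genes passed. In RPF-seq 0 of 10 passed without replicate 1 or without replicate 2, with 2 at an unadjusted limma p below 0.05 in each case. Of all genes, 0 passed without replicate 1 and 16 without replicate 2. An unadjusted limma p below 0.05 was found for 1586 and 2021 of all genes in that order.

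The other calls were near the threshold. Irs2 lost its call in 15 of the 24 fits that left out 1 pool, with FDRs of 0.054 to 0.082. These left out either pool of ZT6, ZT8, ZT10, ZT18 or ZT20, or replicate 1 of ZT4, ZT12, ZT14, ZT16 or ZT22. Foxo1 lost it in 10, with FDRs of 0.057 to 0.072, without either pool of ZT2, ZT18 or ZT20, replicate 1 of ZT8 or ZT10, or replicate 2 of ZT0 or ZT12. Pik3r1 lost the RNA-seq call in 13, with FDRs of 0.052 to 0.078, without either pool of ZT6, ZT8, ZT10, ZT16, ZT20 or ZT22, or replicate 1 of ZT18. It lost the RPF-seq call in 6, with FDRs of 0.050 to 0.056, without either pool of ZT4, replicate 1 of ZT8, or replicate 2 of ZT6, ZT14 or ZT20.

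Txnip was lower in the dark by 0.35 ± 0.14 in RNA-seq and 0.38 ± 0.14 in RPF-seq on the log2 scale and did not pass (limma FDR 0.072 and 0.074). It passed in both assays without any of the 4 pools of ZT0 and ZT22, with FDRs of 0.018 to 0.042 for the transcript and 0.020 to 0.040 for the footprints. With ZT0 and ZT12 left out, the differences were -0.50 (limma FDR 0.0069) and -0.52 (limma FDR 0.0080). Irs1 footprints were 0.23 ± 0.09 higher in the dark (limma FDR 0.10) and passed with ZT0 and ZT12 left out, at 0.34 and a limma FDR of 0.014, and without ZT12 replicate 2 (FDR 0.045). The dark minus light difference of Irs2 footprints was -0.60 ± 0.24 (limma FDR 0.10) and passed without ZT0 replicate 2 (FDR 0.048). Sesn3 transcript differed by -0.16 ± 0.06 (limma FDR 0.064) and passed without either pool of ZT16 or replicate 2 of ZT12 or ZT14, with FDRs of 0.036 to 0.045.

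TE separated the genes by level. The ratio of mean RPF to mean RNA was 1.60 for Txnip, 1.42 for Foxo1 and 1.05 for Foxo3, above the median of 0.956 over all genes, and 0.861 for Irs2, 0.849 for Sesn1, 0.742 for Insr and 0.693 for Pik3r1. It was lowest for Sesn3 (0.573), Igf1r (0.455) and Irs1 (0.405), which stood at the 22.1, 14.04 and 10.8 percentiles. In single pools the TE of Txnip ran from 1.30 to 2.01 and that of Irs1 from 0.327 to 0.572, so that these ranges did not overlap. Neighbours in the order, such as Irs2 at 0.866 ± 0.114 and Sesn1 at 0.854 ± 0.124 (mean of pool ratios ± SD, n = 24), did not differ beyond their spread.

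TE had a 24-h rhythm in 2 of the 10 genes, Foxo3 and Irs1, at a limma FDR below 0.05, against 17.1% of all genes. Because TE is the difference of the log2 values of both assays within a pool, this tests whether transcript and footprint rhythms differ. Foxo3 TE peaked at ZT20.6 ± 0.8 h with a fold of 1.27 (limma FDR 0.0070). Its pools at ZT20 stood at 1.24 and 1.41, the highest of the 24, and those at ZT14 at 0.857 and 0.984. The highest TE of Foxo3 fell at the time of its lowest transcript. The transcript is the divisor of TE, so TE and transcript are not independent values. The part of this in the Foxo3 TE rhythm was not tested. Foxo3 footprints at ZT20 were below their mean over all pools.

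Irs1 TE peaked at ZT19.6 ± 1.1 h with a fold of 1.29 (limma FDR 0.041). Its pools stood at 0.463 and 0.572 at ZT18 and at 0.506 and 0.539 at ZT20, and at 0.331 and 0.358 at ZT12. All pools of ZT16 to ZT20 except 1 at ZT16 lay above the other timepoints. The Foxo3 call held without any single pool, with FDRs of 0.0035 to 0.018. The Irs1 call was lost in 12 of 24 such fits, with FDRs of 0.051 to 0.096, without either pool of ZT4, ZT18 or ZT20, replicate 1 of ZT2, ZT6 or ZT12, or replicate 2 of ZT8, ZT10 or ZT16. In a fit without the pairing of the assays by pool both fell short, with FDRs of 0.086 for Foxo3 and 0.19 for Irs1. Both also fell short without replicate 1 or replicate 2, with FDRs of 0.18 to 0.36, in fits where 0 and 2 of all genes passed and 1858 and 2545 had an unadjusted limma p below 0.05. Igf1r TE had a fold of 1.15 and a limma FDR of 0.060, and passed without ZT18 replicate 2 (FDR 0.040).

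**Figure D4:**
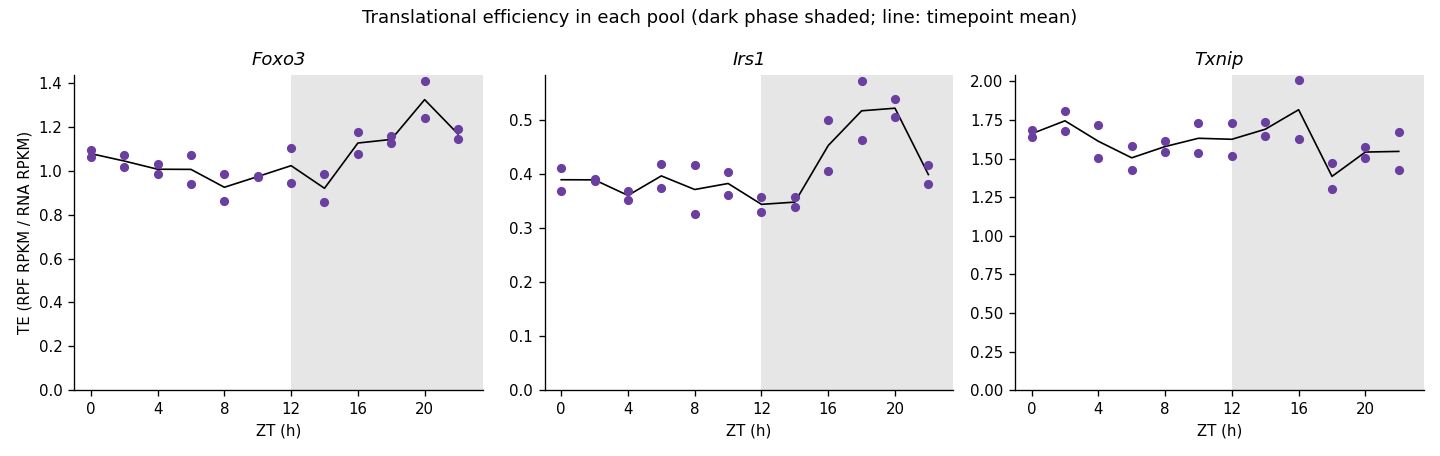
TE (RPF RPKM over RNA RPKM, y axis from 0) against ZT in hours (x axis) for Foxo3, Irs1 and Txnip in each of the 24 pools, with timepoint means as lines and the dark phase shaded. The timepoint mean of Foxo3 is highest at ZT20, those of Irs1 are highest at ZT18 and ZT20, and Txnip stays between 1.30 and 2.01.

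The genes whose transcript profile over the 12 timepoint means was most like that of a rhythmic member were taken from all 1210 rhythmic transcripts. For Txnip these were Trp53i11 and Pheta1, with Pearson's r of 0.91 and 0.90. For Irs2 they were Jade2 and Acvr2b (r = 0.95 and 0.92), and for Foxo3 Ccnd1 and Il17rb (r = 0.96 and 0.94). These values describe likeness over 12 points and were not tested.

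The wider pathway was described by 7 lists with 106 genes tested. In RNA-seq 19 of these 106 genes were rhythmic, 17.9%, and in RPF-seq 12 of 106, 11.3%, beside 10.2% and 7.58% of all genes. TE was rhythmic in 24 of 106, 22.6%, beside 17.1%. In 38 of them at least 1 of the 3 tests passed, and 24 of the 25 with the largest fits in either assay are described. No enrichment was tested.

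Among the ligands and binding proteins, 4 of 11 transcripts and 3 of 11 footprint profiles were rhythmic, beside 10.2% and 7.58% of all genes. Igfbp1, a secreted IGF-binding protein known as a FOXO target lowered by insulin, had the largest rhythm in the pathway. Its transcript ran from 0.983 to 19.9 RPKM with a median of 4.00 and was highest at ZT6, with a mean of 18.6, and lowest at ZT14, with 1.10. The fitted fold was 7.19 with a peak at ZT6.1 ± 0.5 h (limma FDR 1.9e-05), and that of the footprints 7.58 at ZT5.7 ± 0.7 h (limma FDR 0.00051). The other 3 rhythmic transcripts of this list peaked in the light too, Igfbp3 at ZT6.6 with a fold of 1.86, Igfbp2 at ZT5.7 with a fold of 1.55 and Igfbp4 at ZT10.5 with a fold of 1.80 in RNA-seq. Of these, Igfbp3 and Igfbp4 were rhythmic in RPF-seq as well, with folds of 1.71 and 1.64.

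Among receptor adaptors, 1 of 11 transcripts and 0 of 11 footprint profiles were rhythmic, beside 10.2% and 7.58% of all genes. An unadjusted limma p below 0.05 was found for 6 of the 11 footprint profiles. Grb2, the adaptor towards RAS, had an RNA fold of 1.79 at ZT5.0 and a footprint fold of 1.21, with a rhythmic TE (fold 1.52, limma FDR 0.030). In the PI3K and AKT core 1 of 17 genes was rhythmic in each assay. This was Sgk1, the kinase that promotes sodium reabsorption and is induced by aldosterone and glucocorticoids, which peaked at ZT16.0 ± 0.4 h with an RNA fold of 2.64 and at ZT15.7 ± 0.5 h with a footprint fold of 2.43. Akt1 passed the FDR alone, with an RNA fold of 1.39 at ZT6.5, and had a rhythmic TE with a fold of 1.42 (limma FDR 0.028).

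Among the brakes of the pathway, 1 of 19 genes was rhythmic in each assay, beside 10.2% and 7.58% of all genes. It was Pik3ip1, an inhibitor of PI3K, with folds of 1.51 in RNA-seq at ZT9.3 and 1.61 in RPF-seq at ZT7.2. TE was rhythmic in 6 of the 19, beside 17.1% of all genes, among them the phosphatase Inpp5k (fold 1.25, limma FDR 0.019). Among FOXO factors and cofactors, 1 of 12 transcripts and 0 of 12 footprint profiles were rhythmic, and 4 of the 12 footprint profiles had an unadjusted limma p below 0.05. Foxo4, a further FOXO factor, had an RNA fold of 1.63 at ZT5.8, a footprint fold of 1.03 and a rhythmic TE with a fold of 1.67 at ZT17.8 (limma FDR 0.0070). The 14-3-3 gene Ywhab, whose product holds phosphorylated FOXO in the cytoplasm, likewise had an RNA fold of 1.49, a footprint fold of 1.09 and a TE fold of 1.54 (limma FDR 0.0012). TE was rhythmic in 5 of the 12, and the others, named after their values were seen, were Sirt1, Ywhag and Ywhae.

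FOXO target genes were rhythmic in 9 of 24 cases in RNA-seq and 5 of 24 in RPF-seq, beside 10.2% and 7.58% of all genes. Their peaks lay throughout the day. The gluconeogenic genes Pck1 and G6pc peaked in the dark. Pck1, for the rate-controlling step of gluconeogenesis, peaked at ZT14.7 ± 0.6 h with a fold of 2.30 in RNA-seq and ran from 602 to 2629 RPKM. G6pc, for its last step, peaked at ZT20.0 ± 0.5 h with a fold of 1.83. Cdkn1a, a cell cycle inhibitor, had fitted peaks at ZT2.1 ± 0.9 h in RNA-seq (fold 2.54) and at ZT23.2 ± 0.7 h in RPF-seq (fold 2.63). Its timepoint mean was highest at ZT2 in each assay. Its TE was rhythmic with a fold of 2.05 (limma FDR 0.033). The cyclin Ccnd1 peaked at ZT10.8 in RNA-seq (fold 1.79) and at ZT12.4 in RPF-seq (1.71). In RNA-seq alone, rhythms passed for the pro-apoptotic Bcl2l11 at ZT4.7 (1.53) and the ubiquitin ligase subunit Fbxo32 at ZT5.0 (1.61). The same held for Gadd45b at ZT7.1 (1.53) and the transcription factor Klf4 at ZT11.7 (1.54). Their footprints had folds of 1.29, 1.55, 1.40 and 1.22 in that order, with limma FDRs of 0.12 to 0.43. The TE test did not pass for them (limma FDR 0.20 to 0.92), so no difference between the assays was shown. Bnip3, which acts in mitophagy, peaked in the dark at ZT15.8 in RNA-seq (1.61), and its footprint fold was 1.32. Ddit4, an inhibitor of mTORC1, was rhythmic in RPF-seq with a fold of 1.51 at ZT17.1 and in TE with a fold of 1.76 (limma FDR 0.0021), while its RNA fold was 1.35 (limma FDR 0.13).

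Among the relatives of the sestrins and of Txnip, 2 of 12 genes were rhythmic in each assay, beside 10.2% and 7.58% of all genes. The arrestin-domain genes peaked at different times. Arrdc4, which like Txnip responds to glucose, peaked at ZT5.5 ± 0.7 h in RPF-seq with a fold of 1.68 and at ZT5.6 in RNA-seq with a fold of 1.44. Arrdc3 peaked at ZT21.8 ± 0.5 h in RNA-seq with a fold of 1.98 and at ZT21.8 in RPF-seq with a fold of 1.73. Arrdc1 peaked at ZT12.6 in RNA-seq with a fold of 1.51 and had a rhythmic TE (fold 1.56, limma FDR 0.0059).

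Between dark and light, 35 of the 106 genes differed in RNA-seq, 24 lower and 11 higher in the dark, and 9 of 106 in RPF-seq, 6 lower and 3 higher. These were 33.0% and 8.49%, beside 25.5% and 9.75% of all genes. The median difference over the 106 genes was -0.04 in each assay on the log2 scale, beside -0.01 and -0.02 over all genes tested.

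**Figure D5:**
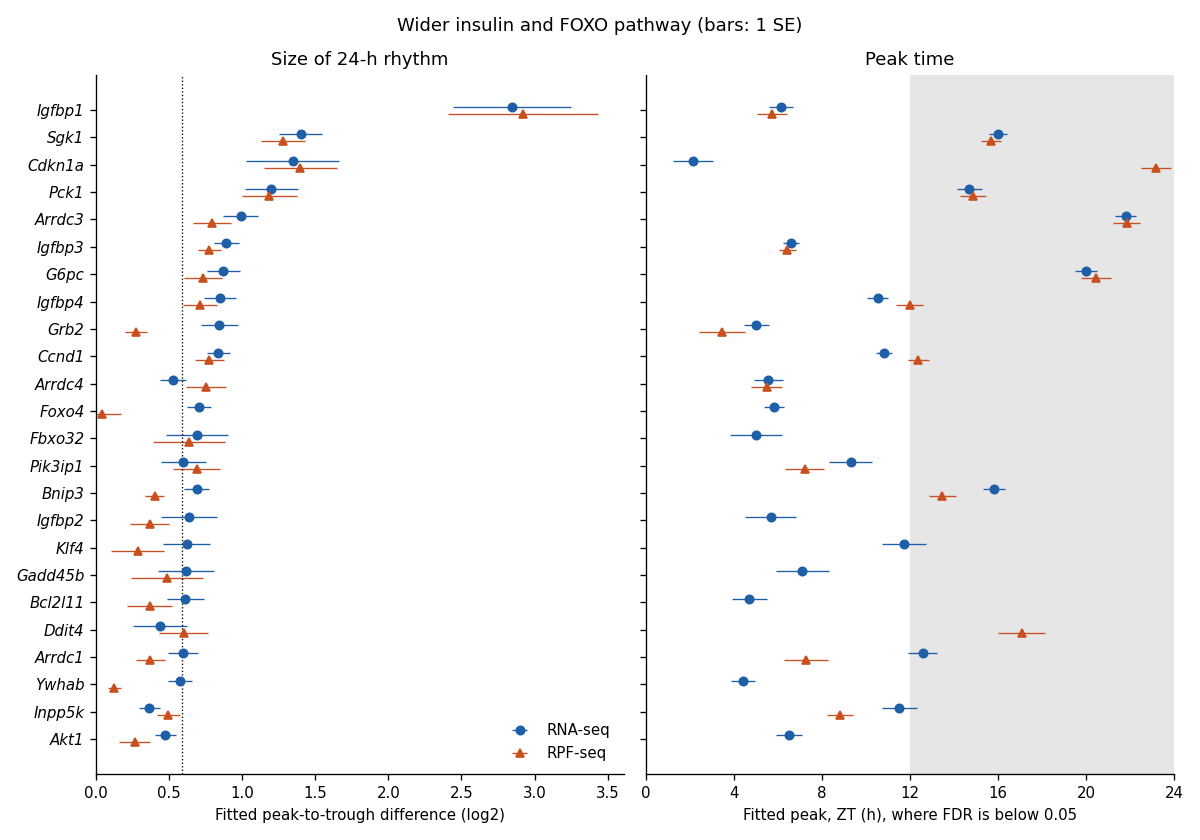
Left, fitted peak-to-trough difference on the log2 scale (x axis) of 24 genes of the wider pathway in RNA-seq (circles) and RPF-seq (triangles), with bars of 1 SE and the 1.5-fold limit dotted. Right, their fitted peaks in ZT hours where the FDR was below 0.05, with the dark phase shaded. Igfbp1 is the largest, Pck1, Sgk1 and Bnip3 peak between ZT12 and ZT16, and Foxo4 and Ywhab have footprint differences near 0.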

How the data were processed

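The deposited values are RPKM per gene on the coding sequence. Per the methods and the submitters' processing notes, the authors trimmed adapters with cutadapt, mapped reads with Bowtie2 2.2.1 and TopHat2 2.0.11 to rRNA, tRNA, cDNA and GRCm38.p2, took transcript models from Cufflinks 2.2.1 and normalised libraries with edgeR by upper quantiles. A change in total RNA per cell therefore cannot be seen.

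Tests here took in 11863 genes, those whose median RPKM reached 0.5 in RNA-seq and in RPF-seq, on log2(RPKM + 0.1), a scale that understates changes of low genes. limma 3.58.1 in R 4.3.3 was used with a variance trend and Benjamini-Hochberg adjustment over all genes, and checked on simulated data. Permutations numbered 100000 (Python 3.11.15, numpy 2.4.6, scipy 1.17.1). Samples were grouped by the timepoint in their labels. The limma p-values of the cosine and phase fits weigh an effect against the spread of pools around the fit. That spread holds differences between replicate pools and also differences among timepoints that the fit does not follow.

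Reads behind the values were recovered from RPKM steps with coding lengths from GENCODE vM21 on GRCm38 (98.3 to 98.9% of low values whole within 0.02 reads), except for Pik3r1. No count model was fitted.

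The members and lists were chosen with earlier results of these data known. Named genes were all 10 members, up to 25 pathway genes that passed a rhythm test in order of fitted fold, and the 2 transcripts most like each rhythmic member. 1 pathway gene of the 25 is not reported here. Cish was chosen after its values were seen. Alternatives were a pseudocount of 1 or 0.01, a median RPKM of 2 or no minimum, quantile normalisation, a replicate block, each replicate and pool left out, an FDR of 0.01, other rhythm tests and other phase limits.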

Additional observations from a re-analysis of the deposited data

Results flagged for a closer look

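The rhythms of transcript and footprint differed for Foxo3 and Irs1, by the 24-h test of TE. The fitted peak-to-trough difference of TE was 0.34 on the log2 scale for Foxo3 and 0.36 for Irs1, with limma FDRs of 0.0070 and 0.041 (24 pools). These were 2 of the 10 genes, where 17.1% of all genes passed. Irs1 lost its call in 12 of the 24 fits that left out 1 pool. Both genes fell short without the pairing by pool (limma FDR 0.086 for Foxo3 and 0.19 for Irs1) and without either replicate.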

How the results depend on the processing

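Leaving out replicate pools, singly or as a whole replicate, moved the number of the 10 genes that passed between 1 and 3 for the RNA-seq rhythm, 0 and 2 for RPF-seq, 0 and 2 for TE, and, for dark against light, 0 and 6 in transcripts and 0 and 4 in footprints. Over all genes these counts ran from 722 to 1430, 370 to 956, 0 to 2299, 144 to 3303 and 0 to 1352. A pseudocount of 1 left 781 rhythmic transcripts and 590 rhythmic footprint profiles, and TE was rhythmic in 1 member and 2157 genes. The test for any difference among timepoints called 2291 transcripts, 4 members and 1132 genes in RPF-seq, and 0 members and 101 genes in TE. In RPF-seq 2 members were rhythmic with quantile normalisation (858 of all genes), with an added 12-h harmonic (1258) or with AIC (1075). AIC called 7 members and 6354 genes in TE. With quantile normalisation 3 members and 2766 genes passed in dark against light in RNA-seq. Irs2, Foxo1 and Pik3r1 were lost (FDR 0.056 to 0.066) and Txnip was gained (FDR 0.039). An FDR of 0.01 left 1 member and 560 genes in TE, 1 and 1547 for dark against light in transcripts, and 0 and 308 in footprints, where 5 members had an unadjusted p below 0.05. Without the pairing by pool 0 members and 964 genes passed in TE. With ZT0 and ZT12 left out, 5 members and 1838 genes differed between dark and light in RPF-seq. With the limits moved by 2 h, 4 members and 1522 genes did.

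Signs turned in dark minus light values of genes that did not pass. Over the fits that left out replicates or pools, Sesn1 ran from -0.15 to 0.016 in RNA-seq and, in RPF-seq, Irs2 from -1.22 to 0.012, Foxo1 from -0.043 to 0.059 and Sesn3 from -0.077 to 0.024, each turning without replicate 1. With 1 pool left out in RPF-seq they were 0.0092 for Sesn3 and -0.0083, -0.011 and -0.0050 for Foxo1. With ZT0 and ZT12 left out, Foxo3 came to -0.0027 and Sesn3 to 0.018 in RPF-seq, and with moved limits to -0.097 and 0.056. The cause of these changes was not tested.

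Replicate numbers did not pair the pools on average. Over 66 pairs of timepoints, the mean correlation between deviations of same-numbered pools was 0.029 for transcripts and 0.020 for footprints. Single pairs ran from -0.181 to 0.48 for transcripts and from -0.204 to 0.185 for footprints. Whether some pools shared a cycle or handling was not tested. With a replicate block the same numbers of members passed, 3, 1, 2, 5 and 2, and 1214, 895, 2161, 3051 and 1123 of all genes. With 2 pools per timepoint, a difference at a single timepoint rests on 2 values, and Irs1 footprints on 165 to 381 reads.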
